A study of Mus musculus with 4 samples.

Results

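Collagens are the proteins that give connective tissue its strength. The collagen genes measured here were all genes whose symbol in the platform's annotation has the form Col, a type number, the letter a and a chain number. There were 36 of them, out of 12393 named genes, and 58 probe sets reported on them. The cells were fibroblasts cultured from mouse embryos, of the strain that the labels spell C57/BJ6. Expression was measured on 4 Affymetrix 3-prime arrays, 1 per group. The groups were total RNA labelled Npm1+/- (1 inactive copy of the gene for nucleophosmin, a nucleolar protein of ribosome assembly), total RNA labelled Npm1+/+ (wild type), ribosome-bound RNA labelled Npm1+/- and ribosome-bound RNA labelled Npm1+/+. Ribosome-bound RNA, called polysome RNA here after the sample titles, came from sucrose gradient fractions, and the design text asks how Npm1 deletion alters what is translated. The labels give neither the kind of Npm1 allele, nor the number of embryos or cultures, nor the passage of the cells.

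A collagen is built of 3 chains wound around each other in a long helix, and each chain has its own gene. Fibrillar collagens form the rope-like fibres of skin, bone and cartilage. Type IV collagens form the sheet of basement membranes, type VI forms beaded filaments around cells, and the FACIT collagens sit on the surface of fibrils. Fibroblasts are the main source of collagen in connective tissue. Their collagen mRNAs are translated on ribosomes at the endoplasmic reticulum.

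All values are on the log2 scale after RMA, a procedure of background correction, normalisation and summary over the several probes that make up each probe set. A difference of 1 is therefore 2-fold. No group was measured more than once, so a difference between groups has neither a replicate error nor a p-value, and the count of genes past 2-fold among all genes serves as the background. The arrays were alike in overall level, with medians of 7.47 to 7.59, and no detection calls were used. A gene is called measured if at least 1 array gave it 7.53 or more. This floor is the median of the whole table. Of the 12393 genes 7179 did so. Npm1 itself did not follow the labels. It read 11.96 in total RNA labelled Npm1+/- and 11.91 in total RNA labelled Npm1+/+, and 12.84 and 12.93 in the polysome libraries with these labels. Its other probe set read 12.03 and 11.96 in total RNA, and 12.79 and 12.73 in polysome RNA, with the labels in the same order. Where its probe set lies relative to the inactivated part is not known here. Each direction below is therefore one between libraries named by their labels.

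Of the 36 collagens, 21 reached the floor and 15 did not. On all 4 arrays 20 of the 21 were at or above it. The exception was Col9a3, a chain of the cartilage collagen type IX, which reached the floor in total RNA labelled Npm1+/+ (7.54) and nowhere else, so that its difference was bound to favour that library. The measured collagens were 8 of 9 fibrillar genes, 3 of 6 basement membrane genes, all 3 beaded filament genes, 3 of 9 FACIT genes and 4 of 9 genes of other types. Just inside the floor stood Col9a3 and Col25a1 (highest value 7.96), and just outside stood Col20a1 (7.48) and Col9a1 (7.39). Another 9 collagen genes of these families, such as Col6a4 and Col27a1, were not analysed here.

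The labelled cell type was checked by markers other than collagens. All 11 fibroblast markers on the array were at the floor on every array, among them the surface protein gene Thy1 at 12.86 and 12.97 in the libraries labelled Npm1+/- and 12.29 and 12.50 in those labelled Npm1+/+. Thy1 was thus higher under the label Npm1+/-, whereas 6 of the 11 were lower in total and 6 in polysome RNA. Of all measured genes 33.6% and 36.6% were lower. The 11 markers ran from -0.57 (Pdgfrb) to 0.71 (Prrx1) in total RNA. None of 7 chondrocyte markers, 4 osteoblast markers and 7 epithelial markers reached the floor. Of 6 endothelial markers 1 did, the receptor gene Kdr, in the total libraries, and of 7 skeletal muscle markers 3 did. Among 11 macrophage markers 7 reached it in at least 1 library. Their mean value was 7.66 in polysome and 6.44 in total RNA labelled Npm1+/-, and 7.39 and 6.21 in the libraries labelled Npm1+/+.

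The promoters of the type IV pairs are shown because their genes lie side by side and 1 pair is described in full below. Col4a1 and Col4a2 encode the chains of the ubiquitous type IV collagen and lie head to head on chromosome 8, transcribed in opposite directions. Col4a5 and Col4a6 form a like pair on chromosome X, but only Col4a5 was measured above the floor. The sequences below are RefSeq promoter windows of GRCm38.p6, from 250 bases before to 50 bases after each gene's start. They are printed 5′ to 3′ on the gene's own strand, and the capitals mark the 78 bases that the Col4a1 and Col4a2 windows share, read from opposite strands.
Col4a1, chr8:11312777-11313076, minus strand: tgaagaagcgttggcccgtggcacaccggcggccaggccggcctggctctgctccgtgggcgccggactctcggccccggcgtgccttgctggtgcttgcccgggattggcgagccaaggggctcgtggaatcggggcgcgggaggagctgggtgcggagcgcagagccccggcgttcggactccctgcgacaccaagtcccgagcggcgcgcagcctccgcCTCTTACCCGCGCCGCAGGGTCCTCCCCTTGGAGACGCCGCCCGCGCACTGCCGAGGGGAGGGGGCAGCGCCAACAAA
Col4a2, chr8:11312555-11312854, plus strand: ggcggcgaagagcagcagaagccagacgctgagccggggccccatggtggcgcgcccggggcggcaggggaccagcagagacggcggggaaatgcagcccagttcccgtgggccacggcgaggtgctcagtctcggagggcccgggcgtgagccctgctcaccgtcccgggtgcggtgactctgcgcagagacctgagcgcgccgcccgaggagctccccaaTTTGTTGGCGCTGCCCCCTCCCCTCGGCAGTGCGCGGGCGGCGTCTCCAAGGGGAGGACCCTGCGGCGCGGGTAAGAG
Col4a5, chrX:141475169-141475468, plus strand: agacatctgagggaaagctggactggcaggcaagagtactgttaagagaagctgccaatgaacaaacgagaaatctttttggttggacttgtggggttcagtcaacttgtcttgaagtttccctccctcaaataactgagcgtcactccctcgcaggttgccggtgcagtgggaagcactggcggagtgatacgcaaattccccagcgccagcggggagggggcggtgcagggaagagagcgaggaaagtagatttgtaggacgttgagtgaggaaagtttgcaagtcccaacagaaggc
Col4a6, chrX:141474027-141474326, minus strand: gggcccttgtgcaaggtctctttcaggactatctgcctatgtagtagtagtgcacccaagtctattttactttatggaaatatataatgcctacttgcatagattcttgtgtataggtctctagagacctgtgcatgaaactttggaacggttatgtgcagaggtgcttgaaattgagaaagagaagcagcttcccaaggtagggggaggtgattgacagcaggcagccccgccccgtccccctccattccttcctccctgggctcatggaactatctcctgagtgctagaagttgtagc

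The annotated starts of Col4a1 and Col4a2 lay 21 bases apart and overlapped, each start lying just inside the other gene's transcript. Those of Col4a5 and Col4a6 lay 1343 bases apart, with a gap between the genes and no shared window. The first pair was rich in G and C, at 74.0% for Col4a1 and 73.7% for Col4a2, against 52.7% for Col4a5 and 48.3% for Col4a6. Both windows of the first pair, and that of Col4a5, held the letters CCAAT (the site of the factor NF-Y) and GGGCGG (a GC box, a site of Sp1) on either strand, and none held TATAAA. The Col4a6 window held GGGCGG and not CCAAT. Over 32851 RefSeq windows of 300 bases in mouse, 37.4% held CCAAT, 35.7% held GGGCGG and 13.6% held TATAAA. Of the 36 collagens 27 had a window in the table. Of the 16 that were measured, 10 held CCAAT, 13 GGGCGG and 1 (Col3a1) TATAAA. Of the 11 below the floor, 2 held CCAAT, 3 GGGCGG and 4 TATAAA. Such matches describe the letters of the window and no binding.

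**Figure D1:**
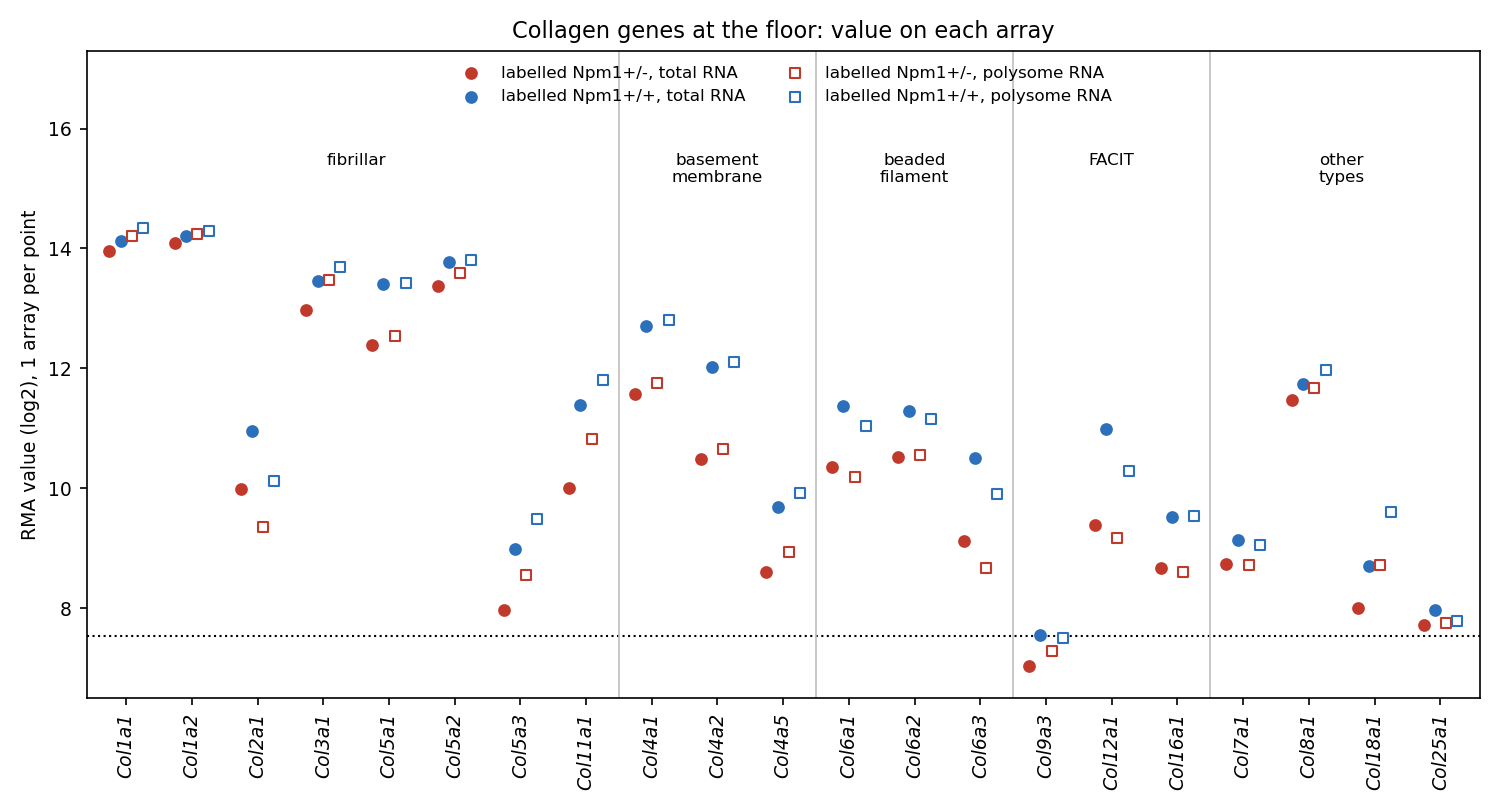
RMA value (log2, vertical axis) of each of the 21 measured collagens on each of the 4 arrays, 1 point per array, with genes grouped by type along the horizontal axis. Filled circles are total RNA and open squares polysome RNA, red for the label Npm1+/- and blue for Npm1+/+. The dotted line is the floor of 7.53. Values are to be compared within a gene, since probe sets differ in brightness. For each gene the red point lies below the blue point of the same RNA. Col9a3 entered through its filled blue point alone.

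Collagen RNA was lower in the libraries labelled Npm1+/- than in those labelled Npm1+/+, in total and in polysome RNA alike. In total RNA 9 of the 21 measured collagens were at least 2-fold lower and none was 2-fold higher, where 1.49% of all 7179 measured genes were 2-fold lower and 0.237% were 2-fold higher. Over all 36 collagens, the floor set aside, this is 9 of 36, against 0.880% of 12393 genes. The median difference of the measured collagens was -0.86, against 0.19 for all measured genes. It was -0.35 over all 36 collagens, against 0.02 for all 12393 genes, and the 15 collagens below the floor had a median of -0.12. In polysome RNA 4 of 21 were at least 2-fold lower and none higher, against 1.17% and 0.0836% of genes, and the median was -0.85, against 0.11. Over all 36 collagens this is 4 of 36, against 0.710% of 12393 genes. Of all 36 collagens 30 were below 0 in both kinds of RNA, against 34.5% of all genes. The 20 collagens at the floor on all 4 arrays, Col9a3 left out, were below 0 in both, as were 28.9% of all measured genes, and had medians of -0.92 and -0.86. Among all measured genes 107 were 2-fold lower and 17 higher in total RNA, which became 154 and 7 under quantile normalisation. Because the median gene was itself above 0, the collagens were also counted relative to it, which gave 11 of 21 at least 2-fold lower in total RNA (2.90% of genes) and 9 of 21 in polysome RNA (1.80% of genes). In RNA from whole cultures, fewer cells that make a transcript and less of the transcript per cell cannot be told apart.

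Type I collagen, the main protein of skin, bone and tendon, differed least of the measured collagens in total RNA at the brightest probe sets. Col1a1, which encodes its alpha-1 chain, read 13.95 in total and 14.20 in polysome RNA labelled Npm1+/-, against 14.13 and 14.34 labelled Npm1+/+. Col1a2, the alpha-2 chain, read 14.10 and 14.25 labelled Npm1+/-, against 14.21 and 14.30 labelled Npm1+/+. The differences were -0.17 and -0.13 for Col1a1 and -0.11 and -0.05 for Col1a2, smaller than the spread between probe sets of a gene given below. Both genes read near the top of the arrays, whose highest value was 14.57. At their dimmer probe sets Col1a1 was at -0.28 and Col1a2 at -0.43 in total RNA. Col25a1, with 1 probe set, was at -0.24, so the rank of type I rests on the probe set. Col3a1, which encodes the type III collagen of skin and vessel walls, read 12.97 and 13.48 labelled Npm1+/-, against 13.46 and 13.69 labelled Npm1+/+. Its difference was -0.49 in total and -0.21 in polysome RNA.

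The chains of type V collagen, which starts and limits the growth of type I fibrils, differed to unequal degrees. Col5a1 read 12.38 in total and 12.54 in polysome RNA labelled Npm1+/-, against 13.40 and 13.42 labelled Npm1+/+. Its difference was -1.02 in total RNA, 2.02-fold lower, and -0.88 in polysome RNA. The other probe sets of Col5a1 gave -0.81 and -0.72, and -0.88 and -1.003, both short of 2-fold in total RNA. Col5a3, a further chain, read 7.96 and 8.55 labelled Npm1+/-, against 8.98 and 9.48 labelled Npm1+/+. Its differences were -1.02 and -0.92, alike to those of Col5a1. Col5a2 stood nearer 0, at 13.38 and 13.58 labelled Npm1+/-, against 13.78 and 13.80 labelled Npm1+/+, which is -0.40 and -0.22. Its dimmer probe set, however, gave -0.95 and -0.90, so that the distance between Col5a2 and its partner chains rests on the probe set chosen. A second probe set of Col5a3, below the floor, read -0.14 and 0.02.

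Of the fibrillar genes, Col11a1 was the lowest in total RNA. It encodes a chain of type XI collagen, a minor fibril collagen best known from cartilage. The gene read 10.01 in total and 10.82 in polysome RNA labelled Npm1+/-, against 11.39 and 11.81 labelled Npm1+/+. This is a difference of -1.38, 2.60-fold lower, in total RNA and -0.99 in polysome RNA. It ranked 23 from the lowest of 7179 genes in total RNA. Its other probe set gave -1.58 and -1.06. Col2a1, the cartilage collagen type II, read 9.99 and 9.36 labelled Npm1+/-, against 10.96 and 10.12 labelled Npm1+/+. Its difference of -0.97 in total RNA was just short of 2-fold, and that in polysome RNA was -0.77. The third cartilage fibril gene, Col11a2, was below the floor, at 6.09 to 6.64. Chondrocyte markers, which lay below the floor throughout, had a mean value of 5.78 and 5.61 in total and polysome RNA labelled Npm1+/-, against 5.87 and 5.69 labelled Npm1+/+. Of these 7 markers 5 were below 0 in total RNA and 5 in polysome RNA, against 47.0% and 45.1% of all 12393 genes. Acan, the cartilage proteoglycan aggrecan, was at -0.23 and -0.32, and Sox9 at 0.05 and 0.01.

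All 3 measured type IV chains, the basement membrane group here, were at least 2-fold lower in total RNA, as were 1.49% of measured genes. Col4a2 read 10.49 in total and 10.65 in polysome RNA labelled Npm1+/-, against 12.02 and 12.11 labelled Npm1+/+. This is -1.53, 2.88-fold lower, in total RNA and -1.46, 2.75-fold lower, in polysome RNA. It ranked 16 from the lowest of 7179 genes in total RNA and 14 in polysome RNA. Col4a1, whose promoter window overlaps that of Col4a2, read 11.57 and 11.76 labelled Npm1+/-, against 12.71 and 12.80 labelled Npm1+/+. Its differences were -1.14 and -1.04 at the brighter probe set and -1.34 and -1.44 at the dimmer. Under each label the total and polysome values of both genes differed by 0.09 to 0.18, and both libraries labelled Npm1+/- lay below both libraries labelled Npm1+/+.

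Col4a5, the chain of the kidney and lens type IV network whose mutation causes Alport syndrome, was lower as well. It read 8.59 in total and 8.94 in polysome RNA labelled Npm1+/-, against 9.69 and 9.92 labelled Npm1+/+. The differences were -1.10, 2.14-fold lower, and -0.98, and its other probe set gave -1.18 and -0.98. Col4a6, its neighbour, read 6.62 to 6.88 on the 4 arrays, all below the floor, with differences of -0.07 and -0.25. Col4a3 and Col4a4, the other pair of the family, were also below the floor at 5.71 to 6.36 and 4.73 to 5.02, with differences of -0.10 and -0.16 in total RNA. The endothelial markers, a possible source of type IV collagen in a mixed culture, had a mean of 5.64 and 5.56 in total and polysome RNA labelled Npm1+/-, against 5.73 and 5.65 labelled Npm1+/+. Their part in the collagen values was not tested.

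The 3 measured chains of type VI collagen, which form 1 heterotrimer, were lower to different degrees. Col6a3, the largest chain, read 9.12 in total and 8.67 in polysome RNA labelled Npm1+/-, against 10.50 and 9.90 labelled Npm1+/+. Its differences were -1.37, 2.59-fold lower, and -1.23, 2.35-fold lower. Col6a1 read 10.36 and 10.19 labelled Npm1+/-, against 11.36 and 11.04 labelled Npm1+/+, which is -1.01 and -0.85. Col6a2, its neighbour on chromosome 10, read 10.53 and 10.55 labelled Npm1+/-, against 11.29 and 11.16 labelled Npm1+/+. That is -0.76 and -0.60, and -0.46 and -0.37 at its other probe set, of the _x_at kind that can cross-hybridise. The chains thus spanned 0.61 in total and 0.63 in polysome RNA at the brightest probe sets. Those of type V spanned 0.61 and 0.71. The type V span rests on the probe set chosen, since Col5a2 was at -0.95 and -0.90 at its dimmer one. Type IV chains spanned 0.43 and 0.48, and the chains of type I 0.06 and 0.08.

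Among the FACIT collagens Col12a1 had the largest difference of any collagen in total RNA. It encodes type XII collagen, which coats type I fibrils. The gene read 9.39 in total and 9.17 in polysome RNA labelled Npm1+/-, against 10.996 and 10.29 labelled Npm1+/+. This is -1.61, 3.05-fold lower, in total RNA and -1.12, 2.18-fold lower, in polysome RNA. It ranked 12 from the lowest of 7179 genes in total RNA and 53 in polysome RNA. Col16a1, of type XVI collagen, read 8.66 and 8.61 labelled Npm1+/-, against 9.53 and 9.54 labelled Npm1+/+, or -0.86 and -0.93. Col9a3 read 7.04 and 7.29 labelled Npm1+/-, against 7.54 and 7.49 labelled Npm1+/+, or -0.51 and -0.21. Its other probe sets, below the floor, gave 0.00 and -0.03 in total RNA. The remaining FACIT genes, Col9a1, Col9a2, Col14a1, Col19a1, Col20a1 and Col22a1, were below the floor. Their differences in total RNA ran between -0.44 (Col9a1) and 0.10 (Col9a2).

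Collagens of other types differed less, and none passed 2-fold. Col18a1, a basement membrane collagen whose end fragment is endostatin, differed by -0.71 and -0.90. Col7a1, the anchoring fibril collagen of skin, was at -0.40 and -0.34. Col8a1, a short-chain collagen of vessel walls, was at -0.28 and -0.31 and at -0.66 and -0.82 at its dimmer probe set. Col25a1, a transmembrane collagen, was at -0.24 and -0.03. Col10a1, Col13a1, Col15a1, Col17a1 and Col26a1 were below the floor, with differences between -0.31 and 0.06 in total RNA. Of these Col10a1, the collagen of hypertrophic cartilage, was at -0.70 in polysome RNA.

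**Figure D2:**
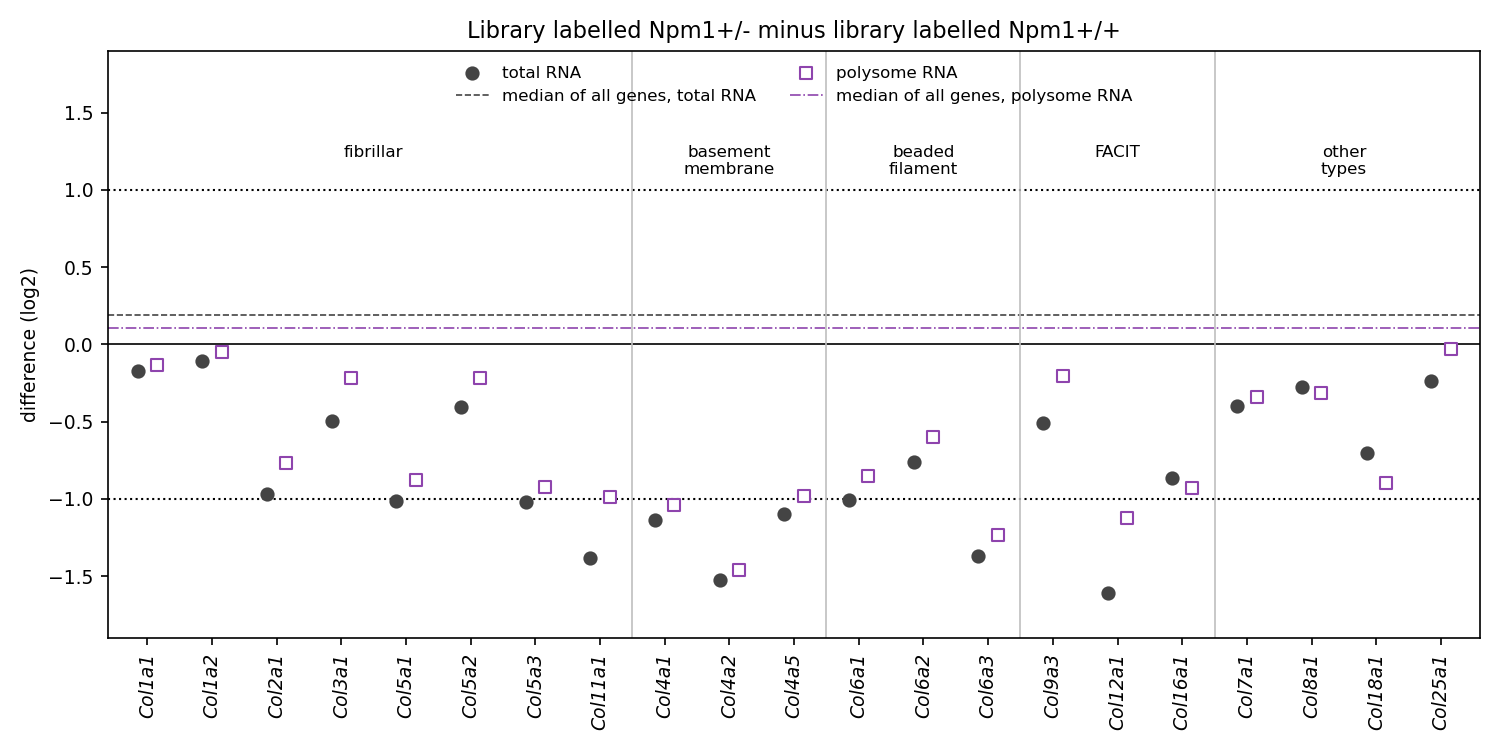
Difference (log2, vertical axis) of the library labelled Npm1+/- minus the library labelled Npm1+/+ for the 21 measured collagens, by type. Filled circles are total RNA, open squares polysome RNA, 1 array each side and no replicate. Dotted lines mark 2-fold and dashed lines the median of all 7179 genes. All points lie below 0, with Col12a1 (-1.61) lowest in total and Col4a2 (-1.46) lowest in polysome RNA, and Col1a1 and Col1a2 near 0.

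The differences in total and polysome RNA, which share no array, ran closely together across the 21 collagens (Pearson r = 0.94, Spearman rho = 0.93), as they did across all 7179 genes (r = 0.91, rho = 0.88). Genes are not replicates, and whether both RNAs of a label came from 1 culture is not stated. Col4a1, Col4a2, Col6a3 and Col12a1 were at least 2-fold lower in both kinds of RNA, as were 1.02% of measured genes. Col4a5, Col5a1, Col5a3, Col6a1 and Col11a1 passed 2-fold in total RNA alone, and in polysome RNA these lay between -0.99 and -0.85.

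How far the probe sets of 1 gene disagree can be read from these arrays, and it serves as the yardstick here. Both probe sets are read on the same arrays. Error shared by a whole array, such as that of culture or RNA preparation, is therefore not in it. In 2700 genes with a second probe set at the floor, the 2 values disagreed with an SD of 0.32 in total and 0.28 in polysome RNA. For the 11 such collagens it was 0.25 and 0.32. The dimmer probe set gave the lower value in 9 of 11 collagens in total RNA and in 7 of 11 in polysome RNA, against 54.7% and 54.8% of all 2700 genes. The gap was widest for Col5a2, by -0.55 in total RNA. Col8a1 followed (-0.39), then Col3a1 (-0.35) and Col1a2 (-0.32). At its dimmer probe set Col3a1 differed by -0.84 and -0.74, and Col1a2 by -0.43 and -0.13. Col1a1 was at -0.28 in total RNA and 0.01 in polysome RNA there, the only sign that turned among these 11. In total RNA the dimmer probe set was the nearer to 0 in Col5a1 and Col6a2, and in polysome RNA in Col1a1 and Col18a1 as well. The dimmest of the 3 probe sets of Col5a1 gave -0.88 and -1.003.

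**Figure D3:**
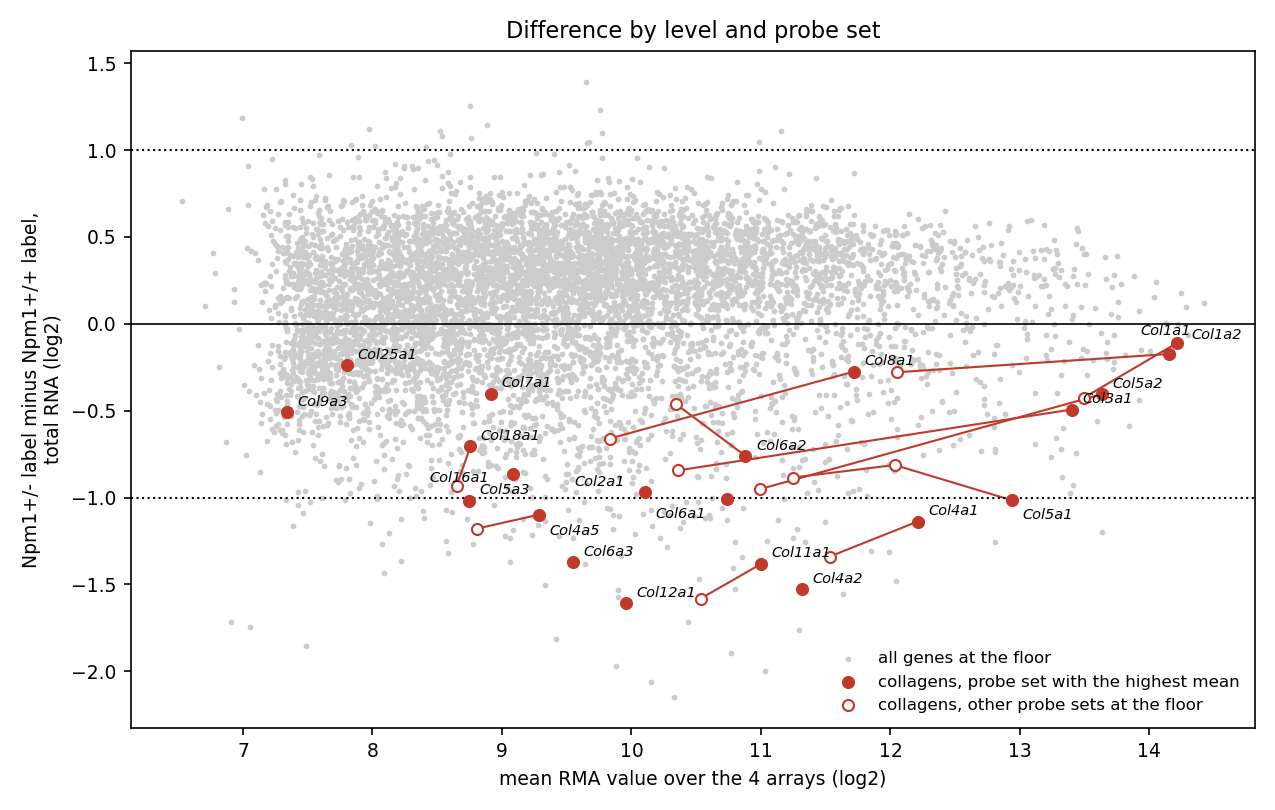
Difference in total RNA (library labelled Npm1+/- minus library labelled Npm1+/+, log2) against the mean RMA value over the 4 arrays. Grey points are all 7179 measured genes, 1 probe set each. Filled red points are the 21 collagens, open points their other probe sets at the floor, and lines join probe sets of 1 gene. For Col3a1, Col5a2, Col8a1 and Col1a2 the brighter probe set lies nearer 0.

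Mean level and the difference in total RNA were weakly related across the 21 collagens (r = 0.23, rho = 0.17). The 4 collagens with a mean of 13 or more, Col1a1, Col1a2, Col3a1 and Col5a2, had a median of -0.29 in total RNA, against 0.08 for the 124 genes at that level. Between 11 and 13 the 5 collagens had a median of -1.14, against 0.23 for 955 genes, and between 9 and 11 the 7 collagens had a median of -1.01, against 0.23 for 3084 genes. The 4 collagens with a mean from 7.53 to 9 had a median of -0.55, against 0.12 for 2605 genes. Col9a3, with a mean of 7.34, lay below these levels and entered none of the medians. The part of signal level in these differences was not tested.

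Between the fraction labels no collagen reached 2-fold, where 0.404% of measured genes were 2-fold higher and 0.362% lower in polysome RNA labelled Npm1+/-, and 0.529% and 0.390% labelled Npm1+/+. The median of polysome minus total values was 0.17 labelled Npm1+/-, against 0.07 for all genes, and 0.02 labelled Npm1+/+, against 0.14. Over all genes the split of calls turned with the scaling, as 26 lower and 29 higher genes labelled Npm1+/- became 36 and 22 under quantile normalisation, and 28 and 38 labelled Npm1+/+ became 43 and 24. Of the 21 collagens 12 were above 0 and 5 below 0 under both labels. The same sign under both labels was seen in 75.6% of all genes. Signs turned with the scaling for Col6a2 and Col25a1 labelled Npm1+/-, and for Col1a2, Col4a1, Col4a2, Col5a1, Col5a2 and Col16a1 labelled Npm1+/+. Of 11 macrophage markers 9 read higher in polysome than in total RNA labelled Npm1+/-, against 58.6% of all 12393 genes. Labelled Npm1+/+ 10 of these markers did, against 62.6% of genes. The marker Lyz2 was higher by 2.25 and 2.23, whereas the marker Ptprc was at -0.32 and -0.21. The part of macrophages in these values was not tested.

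Higher in polysome RNA were Col18a1, by 0.71 labelled Npm1+/- and 0.90 labelled Npm1+/+, Col5a3, by 0.59 and 0.50, and Col11a1, by 0.81 and 0.42. Col3a1 was at 0.51 and 0.24, and at 0.77 and 0.66 at its dimmer probe set. At the other end, Col2a1 was at -0.63 and -0.83, Col6a3 at -0.45 and -0.59 and Col12a1 at -0.22 and -0.70. All 3 type VI genes read lower in polysome than in total RNA labelled Npm1+/+, where Col6a1 was at -0.33 and Col6a2 at -0.13, whereas labelled Npm1+/- they were at -0.17 and 0.03 (-0.10 at the other probe set of Col6a2). Of the type IV chains, Col4a1 was at 0.18 and 0.09, Col4a2 at 0.17 and 0.10, and Col4a5 at 0.35 and 0.23 (0.50 and 0.31 at its other probe set). Col1a1 gave 0.25 and 0.21 at its brighter probe set but -0.21 and -0.50 at the dimmer, so its sign rests on the probe set. Col1a2 gave 0.15 and 0.09, and 0.26 and -0.04 at its dimmer probe set. The SD between probe sets was 0.24 labelled Npm1+/- and 0.28 labelled Npm1+/+.

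**Figure D4:**
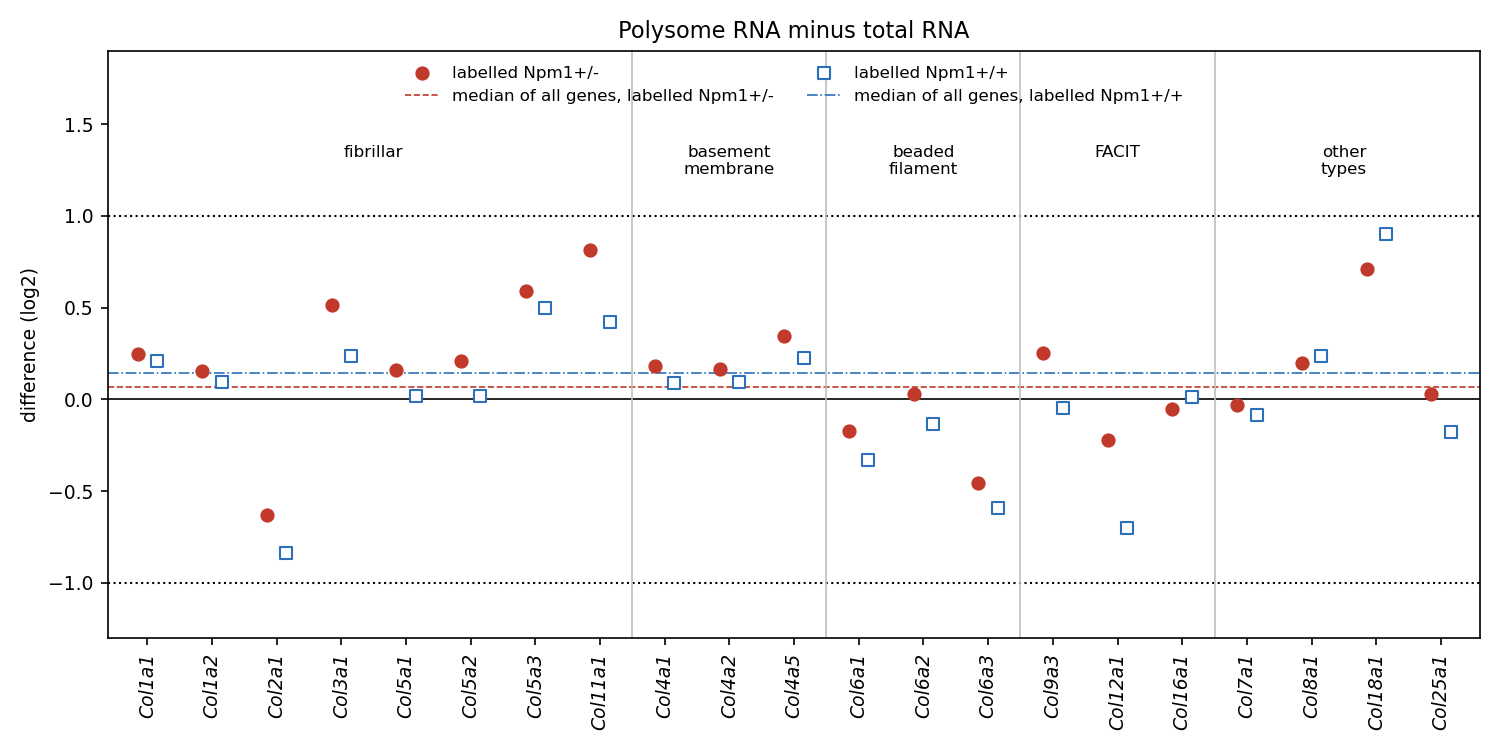
Difference (log2, vertical axis) of polysome RNA minus total RNA for the 21 measured collagens, by type. Filled red circles are the libraries labelled Npm1+/- and open blue squares those labelled Npm1+/+, 1 array each side. Dotted lines mark 2-fold and dashed lines the median of all genes. All points lie within the dotted lines, with Col18a1 and Col11a1 highest and Col2a1 lowest.

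Whether the fraction difference itself differed between the genotype labels was read from the polysome minus total value labelled Npm1+/- less the same value labelled Npm1+/+. By construction this equals the difference between labels in polysome RNA less that in total RNA. No collagen and no other gene reached 2-fold (0.00%). The median was 0.14, against -0.07 for all genes, and 17 of the 20 collagens at the floor on all 4 arrays were above 0, against 32.9% of measured genes. Over all 36 collagens 24 were, against 43.5% of all genes. For a gene below 0 in total RNA, a value above 0 says that its difference was nearer 0 or above it in polysome RNA. The difference was smaller in polysome than in total RNA in 18 of 21 collagens and in 68.4% of all measured genes. The largest values were those of Col12a1 (0.48) and Col11a1 (0.39, and 0.53 at its other probe set). Col9a3, which entered through total RNA labelled Npm1+/+ alone, was at 0.30. Col18a1 was lowest, at -0.19, and at 0.06 at its other probe set. Col4a1 was at 0.10 and, at the dimmer probe set, at -0.10. The signs of Col1a1, Col1a2, Col8a1 and Col16a1 turned with the scaling. The SD between probe sets was 0.22, against a range of -0.19 to 0.48 for the collagens.

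Genes that modify, export, process, bind or break down collagen had list medians nearer 0 than the collagens in both kinds of RNA. Of 15 measured genes for modification and folding, none passed 2-fold at its brightest probe set and the median was 0.10 in total and 0.05 in polysome RNA. The dimmer probe set of P4ha1, a catalytic subunit of prolyl 4-hydroxylase, was past 2-fold, at -1.28 and -1.26, where the brighter gave -0.31 and -0.40. P4ha2, another such subunit, had the lowest value in total RNA at the brightest probe sets, at -0.64 and -0.58 in the 2 kinds of RNA, and P3h4, a partner of the prolyl 3-hydroxylase and lysyl hydroxylase complexes, the highest, at 0.62 and 0.32.

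For procollagen export, none of 9 genes passed 2-fold (median -0.12 in total and 0.01 in polysome RNA). The coat protein genes Sec24d (-0.74) and Sec31a (-0.61), whose products build the vesicles that carry procollagen out of the endoplasmic reticulum, had the largest differences. For propeptide processing and cross-linking none of 9 did at its brightest probe set (medians -0.09 and 0.10), with Pcolce2, an enhancer of procollagen cleavage, at 0.80 and the lysyl oxidase-like gene Loxl3 at -0.79. Bmp1, which encodes the procollagen C-proteinase, was at -0.64 and -0.58, and past 2-fold at a dimmer probe set, at -1.12 and -1.09. Of 5 collagen receptors (medians -0.46 and -0.44) 1 passed in total RNA, where 1.49% of all genes did, and none in polysome RNA. It was Mrc2, which encodes the endocytic receptor Endo180. It read 9.12 in total and 9.65 in polysome RNA labelled Npm1+/-, against 10.23 and 10.61 labelled Npm1+/+, or -1.10 and -0.96, and its other probe set gave -0.94 and -0.98. Cspg4, the proteoglycan NG2, was at -0.83 and -0.53, and at -1.14 and -0.75 at its other probe set. The 4 measured proteases had none past 2-fold (medians -0.29 and -0.21), with Ctsk (cathepsin K) at 0.38. Mmp9, at -0.38 in total RNA, reached the floor in polysome RNA labelled Npm1+/+ alone, and Mmp8, at -0.45, was below the floor. TGF-beta signalling acts upstream of collagen transcription in fibroblasts. Its genes and targets had medians of 0.25 and 0.27, against 0.19 and 0.11 for all measured genes. None of the 13 was past 2-fold at its brightest probe set. A dimmer probe set of Smad4 was past 2-fold higher in total RNA, at 1.06 and 0.69, where the brightest gave 0.25 and 0.33. The ligand gene Tgfb1 was at 0.61 and the target gene Tgfbi at -0.61.

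Many genes for proteins that assemble with type IV collagen were lower as well. Of 11 basement membrane partners on the array, the floor set aside, 4 were at least 2-fold lower in total RNA and 2 in polysome RNA, against 0.880% and 0.710% of all genes. Their medians were -0.69 and -0.80, and all 11 were below 0 in both, against 34.5% of all genes. Over all 36 collagens, the floor likewise set aside, the medians were -0.35 and -0.26. The 9 partners at the floor had medians of -0.9999 and -0.81. Nid2, a nidogen that links laminin to type IV collagen, read 7.66 in total and 7.48 in polysome RNA labelled Npm1+/-, against 9.03 and 8.72 labelled Npm1+/+, or -1.36 and -1.23. Nid1 was at -1.31 and -0.81, the laminin chain genes Lamb1 at -1.28 and -0.99 and Lamc1 at -1.27 and -1.04. Lamb2, a further laminin chain gene, was at -0.9999 and -0.81, but reached the floor in the libraries labelled Npm1+/+ alone, so that its sign was bound to be below 0. The fibroblast markers had a median of -0.07 in total and -0.03 in polysome RNA over 11 genes and none past 2-fold.

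**Figure D5:**
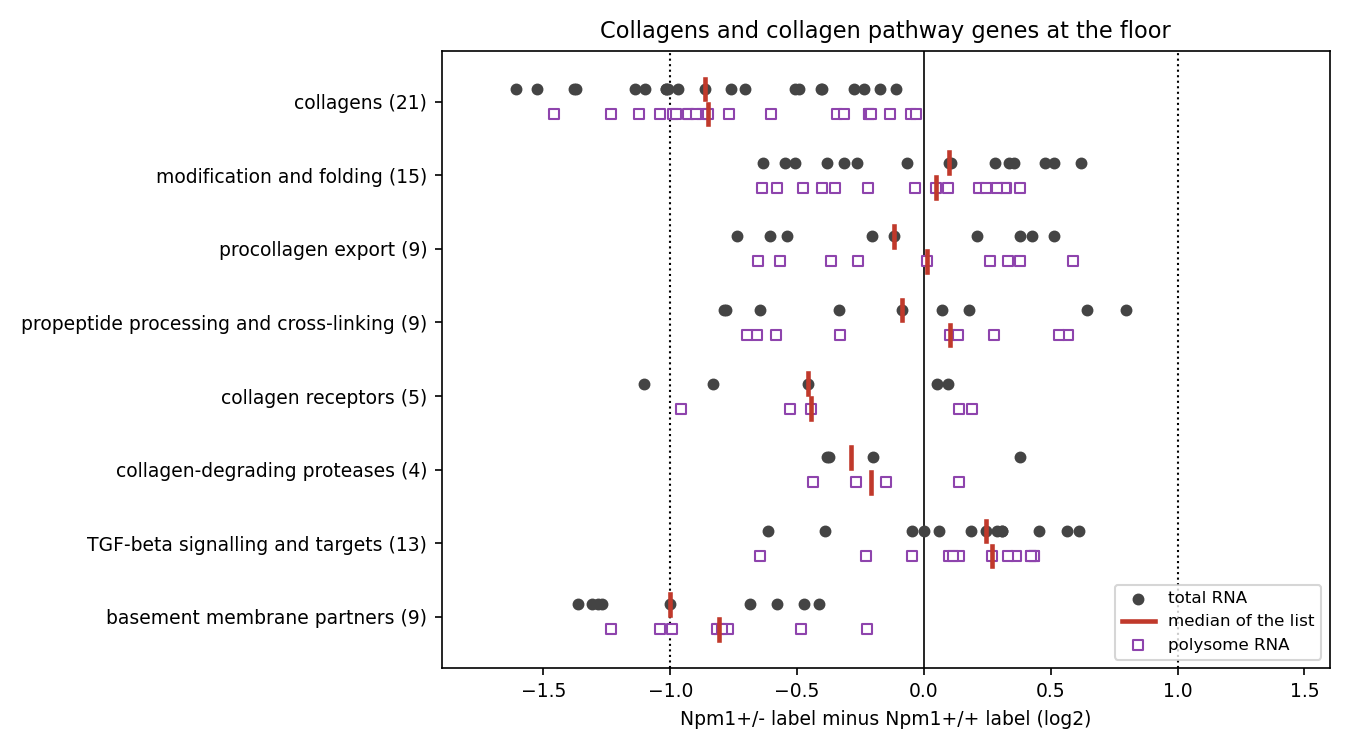
Difference (log2, horizontal axis) of the library labelled Npm1+/- minus the library labelled Npm1+/+ for the 21 measured collagens and for 7 lists of genes that act on or with collagen, with the number of measured genes in brackets. Filled circles are total RNA, open squares polysome RNA, and red bars the median of the list. Dotted lines mark 2-fold. The collagen median is -0.86 in total RNA and that of the modification and folding genes 0.10. Col9a3, Lamb2 and Mmp9 entered through libraries labelled Npm1+/+ alone, which bears on the rows that hold them.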

How the data were processed

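The authors deposited a table of log2 values covering 22690 probe sets on 4 arrays. RMA in affy 1.56.0 under R 3.4.3 is named in the submitters' processing notes, and its settings are not given in the sources used here. RNA was amplified by T7 transcription and biotin-labelled, per the labels' protocols. Groups came from the labels alone.

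Probe sets with 1 symbol in the platform's annotation were named, and the symbols of all 36 collagens matched RefSeq (GRCm38.p6). A gene was represented by its brightest probe set, by the mean of the 4 arrays. Log2 differences were taken for 5 comparisons and counted at 2-fold with Python 3.11.15, numpy 2.4.6 and pandas 2.3.3, and the counting was tested on simulated data. The number of arrays limits the precision. No test was run, since 1 array per group leaves no replicate. The members and lists were chosen with earlier results of these data known. Named were the measured members of the 4 main collagen types, other collagens for account, and of each further list the members past 2-fold or else the 2 with the largest difference in total RNA. Alternatives concerned the probe set, the floor (also 9.33, the 75th percentile), the scaling and the threshold.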

Additional observations from a re-analysis of the deposited data

How the results depend on the processing

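No paired analysis was made, since each group has 1 array and no replicate. As no replicate spread exists, a value counted as moved where it changed by more than the SD between a gene's probe sets, and a count where it changed by more than 1.5 times. With no floor, over all 36 collagens, the median difference between genotype labels was -0.35 in total and -0.26 in polysome RNA, since the 15 dim genes enter. A 3-fold threshold left 1 collagen lower in total RNA (0.167% of all genes) and 0 in polysome RNA (0.139%). In polysome RNA the 4 lower collagens became 13 at 1.5-fold (5.86%), 8 after a loess trend on level was subtracted (1.80%), and 9 relative to the median gene (1.80%), a count added after seeing the data. Between fraction labels the 1.5-fold threshold gave 3 higher and 1 lower collagens labelled Npm1+/- (2.24% and 1.35% of all genes), and 1 higher and 3 lower labelled Npm1+/+ (3.65%, and 112 of 7179 genes). The median of all genes in total RNA moved by -0.11 under quantile normalisation and by -0.16 under the loess trend. Under these, centred arrays and the count relative to the median gene, 0 collagens turned sign between genotype labels, whereas 2 (labelled Npm1+/-) and 6 (labelled Npm1+/+) did between fraction labels, all of them near 0, and 4 did in the association difference. The 9 collagens past 2-fold in total RNA stayed past it under these scalings, and 7 of them did with probe sets averaged per gene and 8 with the second brightest, also chosen after seeing the data. Of 920 alternative values of single collagens 18 moved, all with another probe set or the mean of all. Many of the 920 could not move, since the floor does not change the value of a gene. A collagen with 1 probe set also has no other to take. The share that moved is therefore no measure of how robust the values are. No difference past 2-fold changed sign, but smaller ones did, such as the fraction differences of Col1a1 at its dimmer probe set.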
